A study of Mus musculus with 24 samples.

Results

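The 10 genes described here belong to the inflammasome and the IL-1 family, and they were measured in prostate tumors of mice given gene therapy with IL-27, a cytokine related to IL-12, and cabozantinib (cabo), an inhibitor of MET and VEGF receptors. They are the ligands Il1b, Il1a and Il18, the receptor antagonist Il1rn, the receptors Il1r1 and Il1r2, the sensors Nlrp3 and Aim2, the adaptor Pycard and the protease Casp1. They were chosen by symbol, and each matched 1 of the 55401 rows of the count table through its Ensembl identifier in GENCODE M21. All 10 passed the filter on low counts in each of the 15 comparisons, and none was below 16 counts in any of the 24 tumors.

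RNA was sequenced from tumors of TC2Ras cells, a mouse prostate adenocarcinoma line made from TRAMP-C2 cells, which carries activated H-Ras. All tumors grew in male C57/BL6 mice, which were 8 to 10 weeks old when obtained. In the subcutaneous (SC) model, 2 tumors of mice given a plasmid for IL-27 with a targeting peptide (IL-27pepL) were compared with 2 of mice given the control vector, and all were taken 1 week after implantation. In the intratibial model, luciferase-marked TC2Ras cells (TC2Ras-Luc) were placed in the tibia. Mice received the control vector with the PVP vehicle (control), the vector for IL-27 with PVP (IL-27), control vector plus cabo (cabo), or both agents (IL-27+cabo), and cabo or PVP was given by mouth daily for 14 days. Tumors were taken on day 14 (D14, 3 per group) or at the end of the study (EOS, 2 per group), when the mice reached the ethical endpoint. Plasmids were delivered to muscle by sonoporation and not to the tumor, in the intratibial model to the tibialis anterior beside the tibia, so every group, controls included, had injected muscle. The intratibial labels number the mice, while nothing states whether the 2 SC tumors of a group came from separate mice, so p-values measure the spread between these tumors only. The SC and intratibial libraries have names with different prefixes, were normalized apart and were not compared with each other, since tumor site and library set cannot be told apart.

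IL-1β and IL-18 are made as inactive precursors. In the canonical inflammasome a sensor such as NLRP3, which responds to many signs of cell damage, or AIM2, which binds DNA in the cytosol, recruits caspase-1 through the adaptor ASC, the product of Pycard, and caspase-1 then cuts both precursors and gasdermin D. IL-1α is active without that cut. IL-1α and IL-1β signal through IL1R1, while IL1RN blocks that receptor and IL1R2 binds the ligands without signaling. Myeloid cells are a main source of IL-1β. RNA levels say nothing of the cut, so the values below are transcript levels and not inflammasome activity.

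On GRCm38, Il1b (ENSMUSG00000027398) lies on the minus strand at chr2:129364570-129371139, and Il1a (ENSMUSG00000027399) lies beside it on the same strand at chr2:129299610-129309972, 54597 bases away. Il1rn (ENSMUSG00000026981) is on the same chromosome at chr2:24336853-24351494, on the plus strand. Both receptors are on the plus strand of chromosome 1, with Il1r2 (ENSMUSG00000026073) at chr1:40074079-40125231 and Il1r1 (ENSMUSG00000026072) at chr1:40225080-40317257, 99848 bases apart. Aim2 (ENSMUSG00000037860) is at chr1:173350879-173466040 on the plus strand, and Nlrp3 (ENSMUSG00000032691) at chr11:59541568-59566956 on the plus strand. Casp1 (ENSMUSG00000025888) is at chr9:5298517-5307265 and Il18 (ENSMUSG00000039217) at chr9:50554827-50581840, both on the plus strand, and Pycard (ENSMUSG00000030793) is at chr7:127989708-127993867 on the minus strand. Genes on the opposite strand share 1.31% of the exon bases of Il1b, 11.2% of those of Il1a and 12.8% of those of Pycard. Whether the counting used strand is not given in the sources used here, so the counts of these genes may hold reads of their partners.

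The promoters of 4 of these genes are printed because they head the results below: Il1b and Il1r2 were the most alike over the intratibial tumors, Il1a neighbors Il1b but followed it less closely, and Aim2 was among the genes that rose in the SC model. Each run is the 250 bases before a RefSeq start site on GRCm38.p6, in the direction of the gene, at chr2:129371140-129371389 for Il1b, chr2:129309973-129310222 for Il1a, chr1:40085843-40086092 for Il1r2 and chr1:173420354-173420603 for Aim2. Capitals mark matches on either strand to the 5 motifs searched, which were NF-kB (GGGA, any base, TTTCC), the STAT element GAS (TTCNNNGAA), ISRE (GAAA, any 2 bases, GAAA), the TATA box (TATAAA) and the core bound by PU.1 (GAGGAA).
Il1b: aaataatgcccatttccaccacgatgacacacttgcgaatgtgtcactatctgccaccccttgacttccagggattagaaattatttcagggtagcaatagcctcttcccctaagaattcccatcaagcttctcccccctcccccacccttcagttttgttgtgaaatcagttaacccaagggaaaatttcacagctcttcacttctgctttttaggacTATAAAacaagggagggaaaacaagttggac
Il1a: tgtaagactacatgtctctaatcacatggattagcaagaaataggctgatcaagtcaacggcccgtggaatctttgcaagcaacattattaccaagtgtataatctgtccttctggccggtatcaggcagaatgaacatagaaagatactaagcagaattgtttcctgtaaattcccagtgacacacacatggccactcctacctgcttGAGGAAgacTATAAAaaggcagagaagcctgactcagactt
Il1r2: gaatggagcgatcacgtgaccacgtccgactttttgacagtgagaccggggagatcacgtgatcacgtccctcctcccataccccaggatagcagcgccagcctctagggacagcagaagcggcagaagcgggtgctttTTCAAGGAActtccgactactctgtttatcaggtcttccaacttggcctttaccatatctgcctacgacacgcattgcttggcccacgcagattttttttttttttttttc
Aim2: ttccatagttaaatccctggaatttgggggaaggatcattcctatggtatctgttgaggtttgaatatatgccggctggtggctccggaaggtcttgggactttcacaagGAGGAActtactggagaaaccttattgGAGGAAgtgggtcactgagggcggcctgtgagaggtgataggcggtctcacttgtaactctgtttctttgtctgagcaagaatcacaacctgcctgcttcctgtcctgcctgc
In Il1b and Il1a the TATA match begins 31 and 32 bases before the start site, and the other capitals of Il1a are a PU.1 core. The match in Il1r2 is to GAS, and both in Aim2 are to the PU.1 core. RefSeq gives 14 promoters for the 10 genes, and their windows held the TATA box letters in 3 genes (Il1b, Il1a and Il18), the PU.1 core in 5 (Il1a, Nlrp3, Aim2, Pycard and Casp1) and GAS in 1 (Il1r2). The TATA match of Il18 is on the opposite strand, 175 to 170 bases before the start site, unlike those of Il1b and Il1a. No window held the NF-kB or ISRE letters. Among all 32851 promoters of the same length, 12.4% held the TATA box, 23.3% the PU.1 core, 7.02% GAS, 2.98% ISRE and 0.356% the NF-kB letters. A match is a run of letters and not a bound site.

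Each library held between 63729005 and 83782258 counts on genes. The keratin genes of luminal epithelium Krt8, Krt18 and Krt19 were detected in every tumor, which says nothing of whether their levels differed between groups. Levels are given as CPM (counts relative to library size as scaled by the TMM method of edgeR). In the IL-27+cabo group of D14 the tumor of mouse 20 stood apart, with a Pearson's r as low as 0.930 to the others of its group across genes, against 0.962 or more within the other groups of D14. In the SC model r was 0.952 between the controls and 0.947 between the treated tumors. At EOS the control tumors of mice 9 and 13 differed widely in several of the 10 genes. Values without these tumors are given beside the results where the direction or size moved most.

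Over the 20 intratibial tumors, levels per length (CPM per kilobase of the annotated transcript) were highest for Il1rn, at a mean of 12.01, and Il1r1, at 9.48. Il1b followed with 5.58 and Casp1 with 2.61, while Il1a was lowest with 0.493. Thus the transcript of the antagonist exceeded those of both IL-1 ligands in mean level per length. The value of 0.845 for Pycard rests on an annotated transcript of 3800 bases, and a shorter one would raise it.

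The spread between tumors set the genes apart. Il1b ranged most, from 0.453 CPM to 19.3 CPM with a median of 6.67 CPM, a 42.6-fold span, and Il1r1 least, from 37.4 to 80.0 CPM with a median of 54.7 CPM, a 2.14-fold span. Between them lay Il18 (18.9-fold), Il1r2 (18.2-fold), Il1a (16.6-fold), Pycard (15.4-fold), Nlrp3 (5.87-fold), Casp1 (5-fold), Il1rn (4.85-fold) and Aim2 (3.32-fold). In bulk tumors, fewer cells of a type and less RNA per cell cannot be told apart. Part of the spread lay within groups. The standard deviation of log2 CPM within groups was 1.24 for Il1b and 1.00 for Il1a but 0.31 for Il1r1. The EOS IL-27 tumor of mouse 10 held the lowest level of 7 of the 10 genes, which were Il1b, Il18, Il1rn, Il1r2, Nlrp3, Pycard and Casp1. Highest levels were shared out, with 3 in the EOS control tumor of mouse 9 (Il1b, Il1a and Il1rn) and as many in the D14 IL-27+cabo tumor of mouse 20 (Il18, Il1r2 and Pycard).

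When the 8 intratibial groups were ordered by mean log2 CPM, the D14 cabo group was first for Il1b, Il1a, Il1rn, Il1r1, Il1r2 and Nlrp3, and the EOS IL-27 group was last for Il1b, Il18, Il1rn, Il1r2, Nlrp3, Pycard and Casp1. Of the 7 steps between neighboring groups, the tumors of both groups did not overlap at 3 for Il1b, 2 for Il1r2 and 1 each for Il1r1 and Nlrp3. For the other 6 genes every neighbor overlapped the next. Of the 21563 genes that passed the filter on low counts in the intratibial tumors, 64.7% had no such step when ordered by their own means, 28.4% had 1, 6.09% had 2 and 0.821% had 3 or more. For Il1b the steps without overlap were from D14 cabo to D14 IL-27+cabo, from there to D14 control, and from EOS cabo to EOS IL-27.

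**Figure D1:**
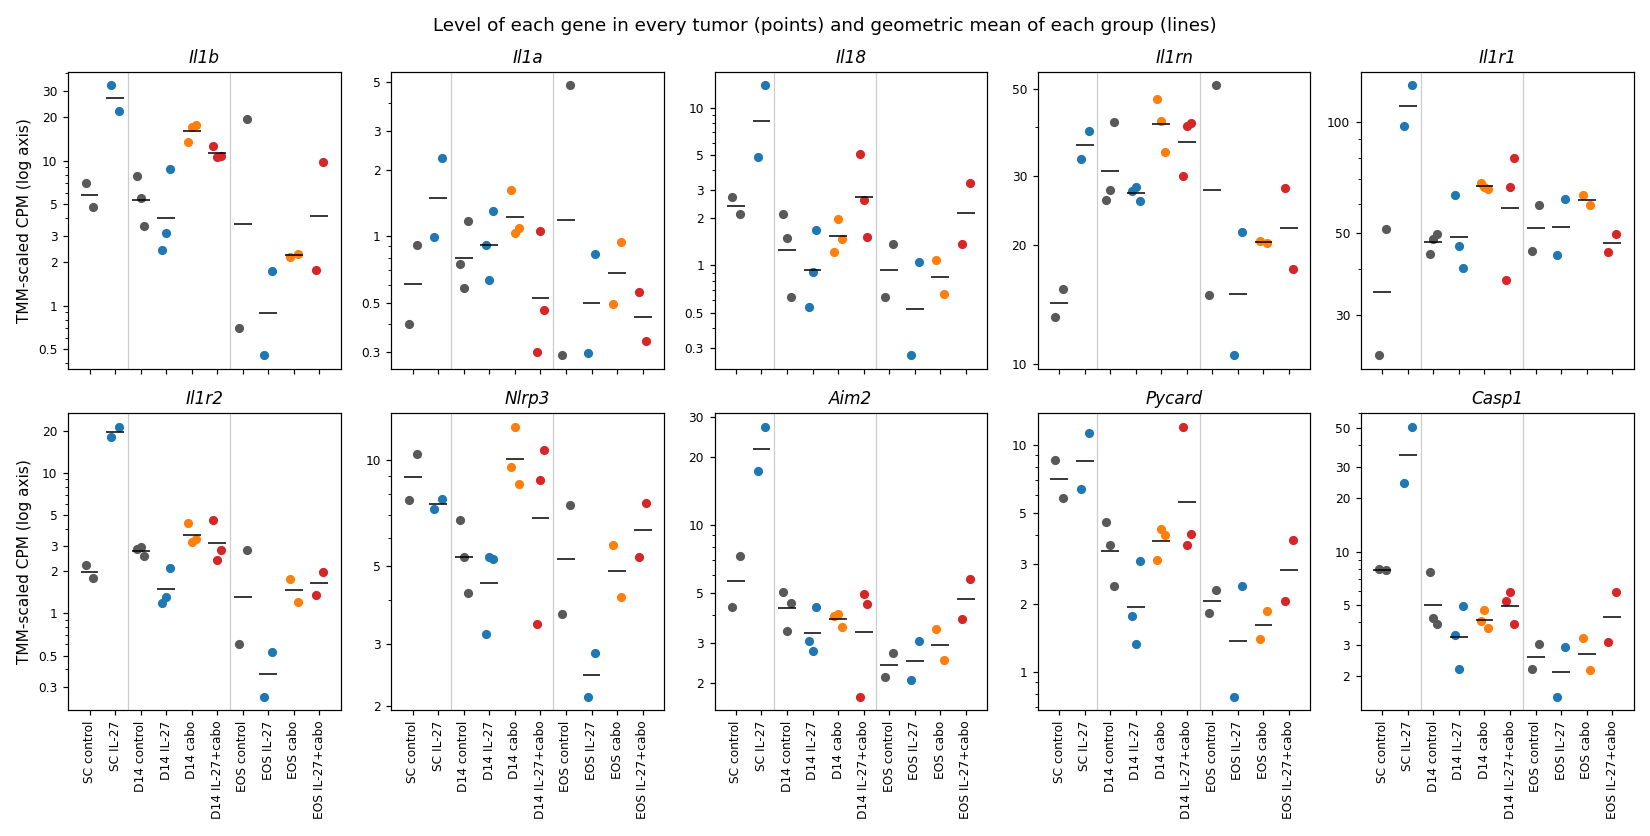
TMM-scaled CPM (log axis) of the 10 genes in every tumor, with 1 point per tumor and a line at the geometric mean of each group, for the SC, D14 and EOS groups on the x axis. SC and intratibial levels were normalized apart, the 3 D14 cabo tumors lie above all D14 control tumors for Il1b (13.5 to 17.6 against 3.51 to 7.79 CPM), and the EOS control tumors lie far apart for Il1b and Il1a.

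To see how IL-27 delivered to muscle bore on these genes in a distant tumor, the SC tumors were compared first. With IL-27, 6 of the 10 genes were upregulated (Il1r2, Casp1, Il1b, Aim2, Il1r1 and Il1rn) and none was downregulated, at an adjusted p under 0.05 in edgeR's quasi-likelihood test. Of all 19360 genes tested, 20% passed that threshold, 3.52% as upregulated and 16.5% as downregulated. The median log2 fold change was 1.76 over the 10 genes and 0.04 over all genes.

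Among the ligands, Il1b was at 7.01 and 4.77 CPM in the control tumors and at 33.0 and 21.96 CPM in the IL-27 treated tumors. It was higher in both treated tumors, with a change of 2.22 on the log2 scale (standard error, SE, 0.43, edgeR adjusted p = 0.0121). Il18 was at 2.71 and 2.11 CPM in the controls and 4.85 and 13.8 CPM with IL-27. The groups did not overlap, but with a change of 1.96 on the log2 scale (SE 0.61) Il18 missed the threshold (edgeR adjusted p = 0.0650). Il1a, whose protein is released by damaged cells, was at 0.401 and 0.911 CPM against 0.988 and 2.26 CPM, a log2 difference of 1.30 with a standard error of 0.76 that did not pass (edgeR adjusted p = 0.261).

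The antagonist and both receptors rose as well. Il1rn was at 13.2 and 15.5 CPM in the control tumors and 33.0 and 38.9 CPM in the treated tumors, with a change of 1.33 on the log2 scale (SE 0.34, edgeR adjusted p = 0.0356). The decoy receptor Il1r2 was at 2.21 and 1.78 CPM against 18.0 and 21.4 CPM. Its change was the largest of the 10, at 9.87-fold, with a change of 3.30 on the log2 scale (SE 0.42, edgeR adjusted p = 0.00281). The signaling receptor Il1r1 was at 23.4 and 51.2 CPM against 97.2 and 125 CPM. The control tumors differed by more than 2-fold here, and the log2 change of 1.58 (SE 0.44) passed narrowly (edgeR adjusted p = 0.0480).

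The genes of the inflammasome itself were split. Casp1 was at 8.03 and 7.85 CPM in the control tumors and 24.3 and 50.6 CPM in the treated tumors, with a change of 2.24 on the log2 scale (SE 0.45, edgeR adjusted p = 0.0150). Aim2, the DNA sensor, was at 4.34 and 7.33 CPM against 17.3 and 27.3 CPM, with a change of 1.93 on the log2 scale (SE 0.46, edgeR adjusted p = 0.0268). Both were higher in each treated tumor than in either control tumor. For Nlrp3 and Pycard the groups overlapped: Nlrp3 was at 7.70 and 10.4 CPM against 7.27 and 7.77 CPM, and Pycard at 8.53 and 5.84 CPM against 6.40 and 11.3 CPM, with log2 differences of -0.27 (SE 0.41) and 0.30 (SE 0.47) that did not pass. In all, 8 of the 10 genes were higher in both treated tumors than in both controls, as were 31.9% of all genes.

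Fold changes in this comparison followed the GC content of the transcripts. The median log2 fold change of all genes was 0.86 for genes of 17.1% to 44.8% GC, 0.37 for those of 44.8% to 49.4%, -0.36 for those of 49.4% to 54.2% and -2.09 for those of 54.2% to 78.3%, in 4 bins of equal size. The transcripts of the 10 genes held 41.1% (Casp1) to 51.0% (Nlrp3) GC, and 9 of them fell in the lower 2 bins. With the trend of each library with GC content and length removed, only Il1r2 stayed past the threshold, with a log2 fold change of 2.87 (edgeR adjusted p = 0.00917). Il1b was then at 1.55 (edgeR adjusted p = 0.0532), Casp1 at 1.02, Aim2 at 0.81, Il1r1 at 0.62 and Il1rn at 0.43, and Pycard turned to -0.61 and still did not pass. Il1b and Il1r2 passed whichever of the 4 tumors was left out, and they were the 2 genes that passed without control tumor 1 or without IL-27 tumor 2. Without control tumor 2 the call for Casp1 was lost, and without IL-27 tumor 1 those for Il1rn and Il1r1 were lost while Il18 passed (edgeR adjusted p = 0.00822).

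Markers of other cells differed between the same tumors. The summed level of the skeletal muscle list was 348 and 899 CPM in the IL-27 treated tumors against 2.30 and 10.1 CPM in the controls, and all 8 of its genes were upregulated. The marrow granule list was at 22.4 and 23.8 CPM against 0.314 and 0.530 CPM, with 3 of its 4 tested genes upregulated, and the mature neutrophil list at 28.7 and 34.8 CPM against 11.8 and 14.9 CPM, with 2 of its 7 genes upregulated. The summed macrophage list overlapped, at 899 and 1305 CPM against 1026 and 1251 CPM, although 4 of its 8 genes were downregulated. Of the T cell list 2 of 5 genes were upregulated. The part of these lists in the changes of the 10 genes was not tested.

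Of 57 other genes of the pathway, 50 were tested in the SC tumors, and 11 were upregulated and 5 downregulated. Among the 6 other receptors, Il1rl1 (the receptor of IL-33), Il18r1 and Il18rap (the chains of the IL-18 receptor) were upregulated, with log2 fold changes of 1.78, 2.23 and 1.80. The inhibitory receptor Sigirr was downregulated by 13.3-fold (log2 fold change -3.73, edgeR adjusted p = 0.00400). Of the 2 other ligands and inhibitors that could be tested, Il33 rose, at a log2 fold change of 2.41 (edgeR adjusted p = 0.0383). Among 12 genes known to respond to IL-1, 5 were upregulated (Il6, Cxcl2, Cxcl5, Ptgs2 and Saa3). Saa3, an acute phase gene, and Il6 had log2 fold changes of 2.84 and 2.85, and the neutrophil chemokine Cxcl5 had 4.46. The feedback genes Nfkbia and Zc3h12a were downregulated, with log2 fold changes of -1.84 and -4.37. Of the 9 effectors and regulators none rose, and the pore protein gene Gsdmd and the membrane rupture gene Ninj1 fell, with log2 fold changes of -1.34 and -4.54. Of the 10 other sensors tested 1 rose (Naip2), and of the 11 signaling genes 1 rose (Irak3, an inhibitor of receptor signaling). With the offsets for GC content and length, 1 of the 50 was upregulated and 5 were downregulated, and 5 of the 16 calls above remained in the same direction. These were Saa3 at 2.28, Zc3h12a at -2.46, Ninj1 at -1.96, Nfkbia at -1.42 and Sigirr at -1.78 (edgeR adjusted p = 0.0498). Il6 was then at 1.41 and Cxcl5 at 3.14, past the threshold in neither case, nor was any of the other genes upregulated above.

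**Figure D2:**
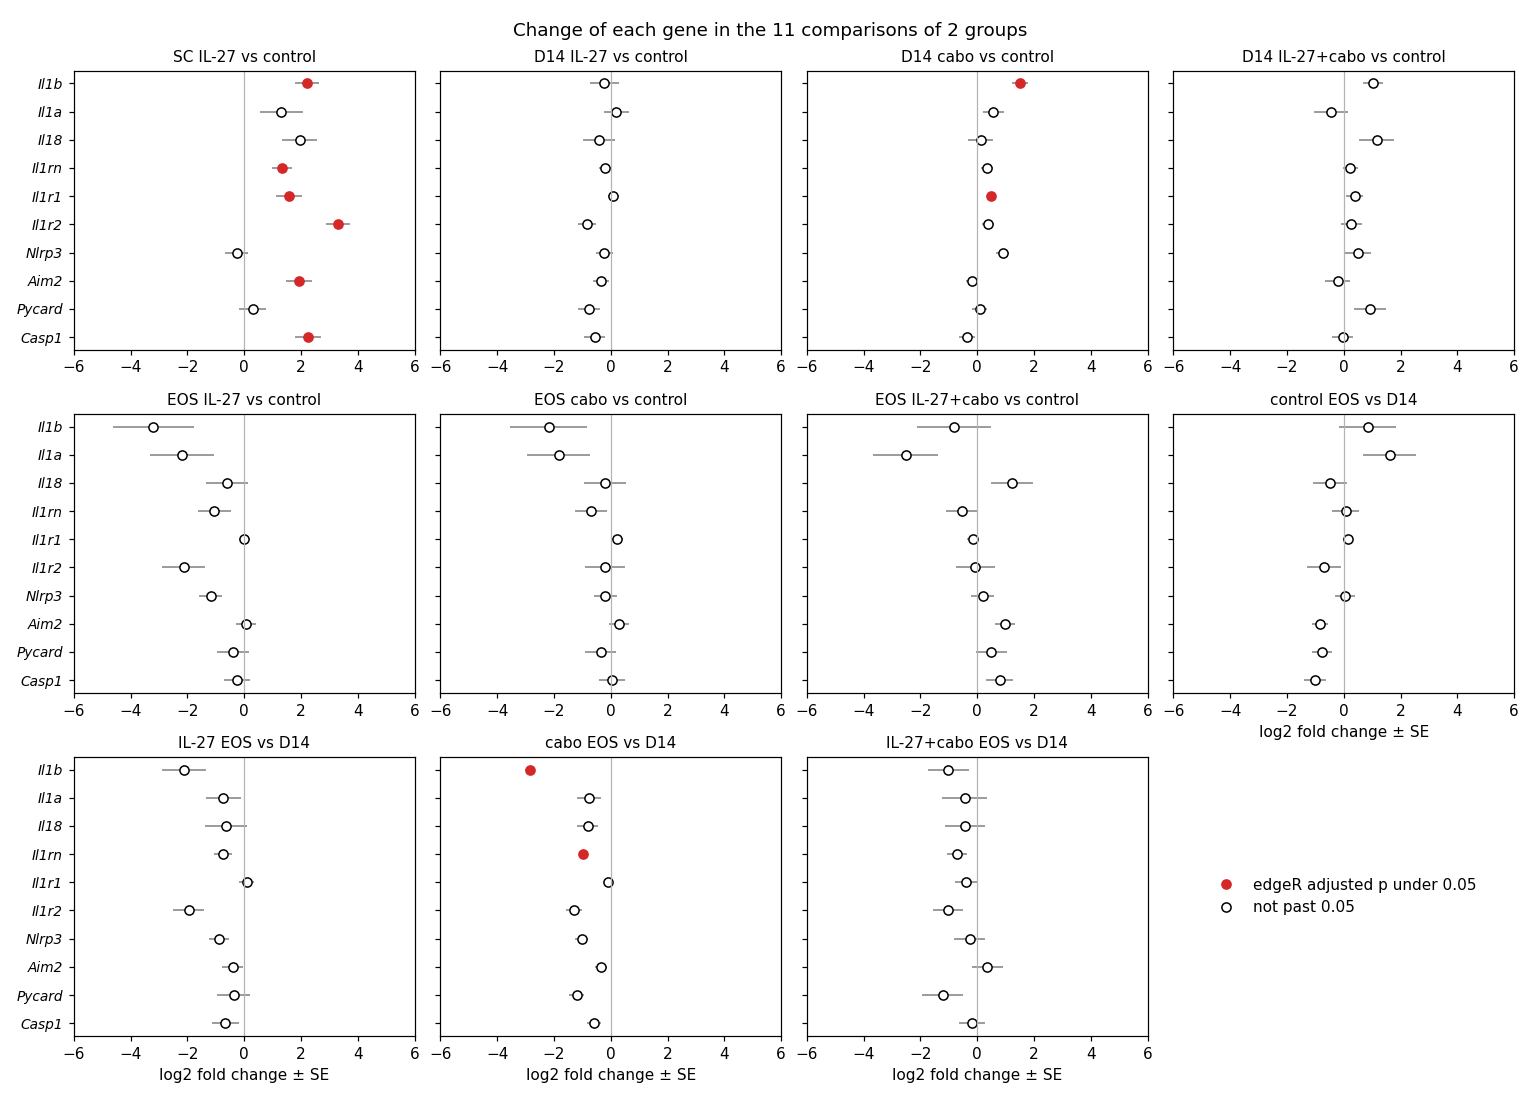
Log2 fold change of each of the 10 genes (x axis, with bars of 1 standard error) in the 11 comparisons of 2 groups, with filled points at an edgeR adjusted p under 0.05. Filled points appear in the SC comparison (6 genes), with cabo at D14 (Il1b and Il1r1) and between EOS and D14 in the cabo group (Il1b and Il1rn). The bars are widest for Il1b and Il1a at EOS.

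In the intratibial tumors of D14, each treatment was set against the same 3 control tumors, so the comparisons share their controls. With cabo 2 of the 10 genes were upregulated, Il1b and Il1r1, and none was downregulated, where 1.89% of 18627 genes passed, 1.20% as upregulated and 0.693% as downregulated. Il1b was at 7.79, 5.55 and 3.51 CPM in the control tumors (mice 3, 5 and 7) and at 13.5, 17.1 and 17.6 CPM in the cabo tumors (mice 21, 25 and 27). The groups were well apart, with a change of 1.50 on the log2 scale (SE 0.27, edgeR adjusted p = 0.0416). Il1r1 was at 43.9, 48.3 and 49.8 CPM against 68.3, 66.8 and 65.7 CPM, a small but even difference with a change of 0.48 on the log2 scale (SE 0.09, edgeR adjusted p = 0.0411).

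Nlrp3 was at 6.77, 5.30 and 4.20 CPM in the D14 controls and 9.61, 12.5 and 8.57 CPM with cabo, without overlap. Its log2 fold change of 0.89 (SE 0.22) did not pass with edgeR (adjusted p = 0.0921) and did with DESeq2 (adjusted p = 0.00380). Il1r2 was the only other gene without overlap, at 2.88, 2.96 and 2.54 CPM against 4.41, 3.21 and 3.37 CPM, with a log2 difference of 0.37 (SE 0.21). Thus 4 of the 10 genes were higher in every cabo tumor than in every control, as were 14.9% of all genes. Il1a, Il18, Il1rn, Aim2, Pycard and Casp1 overlapped, with log2 differences from -0.36 (Casp1) to 0.56 (Il1a).

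The calls for Il1b and Il1r1 were close to the threshold. Both were lost without the filter on low counts, with all intratibial groups in 1 fit, with the muscle list as a covariate and when any of the cabo tumors or the control tumor of mouse 5 or 7 was left out, while the log2 fold change stayed between 1.25 and 2.02 for Il1b and between 0.31 and 0.52 for Il1r1. Without the control tumor of mouse 3 only Il1b passed, and with the trend with GC content and length removed Il1b was at 1.52 and passed, while Il1r1 was at 0.34 and did not (edgeR adjusted p = 0.0907). In the same tumors the muscle list was at 884 to 1534 CPM with cabo against 3.50 to 112 CPM in the controls, with 2 of its 8 genes upregulated. The mature neutrophil list was at 13.4 to 17.9 CPM against 5.34 to 7.17 CPM, with 6 of its 7 genes higher and none past the threshold. The marrow granule list lay the other way, at 0.802 to 1.67 CPM against 3.28 to 3.81 CPM, with 3 of its 4 tested genes lower at an unadjusted p under 0.05. All 5 erythroid genes were lower at that p as well, at a summed 13.9 to 29.3 CPM against 51.8 to 237 CPM, and none of either list passed the threshold. The macrophage list overlapped, at 717 to 915 CPM against 469 to 1026 CPM, and 3 of 5 endothelium genes, 3 of 5 T cell genes and 1 of 5 osteoclast genes were downregulated. The fibroblast list did not overlap, at 5249 to 5917 CPM against 4102 to 4708 CPM, with 5 of 5 genes higher, 2 of them at an unadjusted p under 0.05 and none past the threshold. The part of these lists in the changes of Il1b and Il1r1 was not tested beyond the fit with the muscle list as a covariate. Of the 50 pathway genes tested, 1 passed, the pyrin sensor gene Mefv, which was upregulated with a change of 1.17 on the log2 scale (SE 0.23, edgeR adjusted p = 0.0477).

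IL-27 alone gave no call among the 10 genes at D14, nor among all 18519 genes with edgeR (0% called), where 2.76% had an unadjusted p under 0.05 and DESeq2 called 2 genes, none of them among the 10. Among the 10 only Il1r2 had an unadjusted p under 0.05, at 1.18, 1.32 and 2.11 CPM in the IL-27 tumors (mice 4, 6 and 8) against 2.54 to 2.96 CPM in the controls, with a log2 difference of -0.85 (SE 0.32) and no overlap, as for 4.73% of all genes in that direction. In these tumors the fibroblast list was at 3188 to 3682 CPM against 4102 to 4708 CPM, with 2 of its 5 genes lower at an unadjusted p under 0.05, and the T cell list at 5.84 to 41.95 CPM against 42.6 to 47.7 CPM. The muscle list was at 19.6 to 1693 CPM against 3.50 to 112 CPM with 8 of 8 genes higher, 1 of them at that p, and the mature neutrophil list overlapped, at 3.50 to 6.70 CPM against 5.34 to 7.17 CPM. No gene of these 4 lists passed the threshold, and their part in the Il1r2 difference was not tested. Il1b was at 2.43, 3.14 and 8.70 CPM with IL-27 and spanned the controls. No log2 difference of the other 9 genes was beyond -0.76 (Pycard, standard error 0.40), and 8 of the 10 were lower on average.

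With IL-27+cabo no gene of the 10 passed at D14, where 0.0640% of all genes did with edgeR, and DESeq2 called none of the 10 either. At an unadjusted p under 0.05 stood 6.20% of all genes and 1 of the 10, Il1b, at 12.6, 10.6 and 10.8 CPM (mice 20, 22 and 24). All 3 tumors were above the controls, as were those of 7.49% of all genes, and below the cabo tumors, and the log2 difference from the controls was 1.04 (SE 0.35, edgeR adjusted p = 0.587). Pycard was at 12.02 CPM in mouse 20 but at 3.62 and 4.04 CPM in mice 22 and 24, and Il18 was at 5.09 CPM against 2.60 and 1.52 CPM. Without mouse 20 the log2 difference from the controls moved from 0.93 to 0.10 for Pycard, from 1.15 to 0.53 for Il18, from 0.26 to -0.11 for Il1r2, from -0.22 to 0.10 for Aim2, from -0.46 to -0.16 for Il1a, from 0.38 to 0.61 for Il1r1 and from 0.50 to 0.83 for Nlrp3, and none passed. In these tumors the mature neutrophil list was at 10.5 to 12.4 CPM against 5.34 to 7.17 CPM in the controls, with 7 of 7 genes higher, and the muscle list at 1092 to 3787 CPM against 3.50 to 112 CPM. The endothelium list was at 68.2 to 119 CPM against 164 to 265 CPM, with 5 of 5 genes lower at an unadjusted p under 0.05. The marrow granule list lay below the controls, at 0.507 to 1.16 CPM against 3.28 to 3.81 CPM, with 3 of its 4 tested genes lower at that p. No gene of these 4 lists passed the threshold. The T cell list was at 9.59 to 12.8 CPM against 42.6 to 47.7 CPM, and 1 of its 5 genes was downregulated. The part of these 5 lists in the Il1b difference was not tested beyond the muscle covariate, with which it was 1.51. In the test of whether the effect of both treatments departs from the sum of their single changes, no gene of the 10 passed, nor any of 19899 genes (0% called, with 1.88% at an unadjusted p under 0.05, and 4 genes called by DESeq2). Pycard alone among the 10 had an unadjusted p under 0.05, with a departure of 1.58 on the log2 scale (SE 0.70), and without mouse 20 it was 0.79.

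At EOS no gene of the 10 passed in any of the 3 comparisons with the controls, which share the same 2 control tumors, and with edgeR 0% of all 20026 genes did. DESeq2 called 23 genes with IL-27, 270 with cabo and 937 with IL-27+cabo, none of them among the 10. At an unadjusted p under 0.05 stood 2 of the 10 genes with IL-27, none with cabo and 1 with IL-27+cabo, where 3.25%, 8.90% and 14.2% of all genes did. All 4 EOS groups were fitted together. The control tumors themselves were far apart. In mouse 13 Il1b was at 0.702 CPM and in mouse 9 at 19.3 CPM, Il1a at 0.289 and 4.81 CPM, Il1r2 at 0.606 and 2.82 CPM and Il1rn at 14.9 and 50.9 CPM. The mature neutrophil list was at 2.37 CPM in mouse 13 and 19.7 CPM in mouse 9. By contrast Il1r1 was at 44.9 and 59.7 CPM and Pycard at 1.82 and 2.30 CPM.

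The sign of the Il1b difference at EOS changed with the control tumor that was kept. With IL-27 Il1b was at 0.453 and 1.73 CPM (mice 10 and 12), a log2 difference of -3.21 (SE 1.43) that became 0.64 without mouse 9 and -4.16 without mouse 13. With cabo it was at 2.17 and 2.26 CPM (mice 19 and 23), a difference of -2.18 that became 1.66 without mouse 9 and -3.13 without mouse 13. With IL-27+cabo the tumors were at 1.75 and 9.73 CPM (mice 16 and 28), and the difference of -0.83 became 3.01 without mouse 9 and -1.78 without mouse 13. The decoy receptor Il1r2 was lower in both IL-27 tumors, at 0.255 and 0.528 CPM, than in either control, with a log2 difference of -2.13 (SE 0.75). Nlrp3 was lower as well, at 2.13 and 2.83 CPM against 3.66 and 7.49 CPM, with -1.18 (SE 0.40). Without mouse 9 these became -0.63 for Il1r2 and -0.56 for Nlrp3, and without mouse 13 they were -2.86 and -1.61. The unadjusted p of both was under 0.05, and 16.3% of all genes were lower without overlap in the same way. The mature neutrophil list was at 1.32 and 2.30 CPM in these IL-27 tumors against 2.37 and 19.7 CPM in the controls, with all 6 tested genes lower and 2 of them at an unadjusted p under 0.05. The erythroid list was at 71.4 and 82.2 CPM against 83.9 and 479 CPM, with 5 of 5 genes lower at that p. No gene of either list passed the threshold, and their part was not tested. With IL-27+cabo, Aim2 and Casp1 were above both controls. Aim2 was at 3.84 and 5.78 CPM against 2.12 and 2.71 CPM, with a log2 difference of 0.98 (SE 0.35, unadjusted p under 0.05), and 21.6% of all genes were higher without overlap. In the same tumors the macrophage list was at 546 and 938 CPM against 275 and 402 CPM, with 8 of 8 genes higher, and the dendritic cell list at 21.9 and 37.1 CPM against 14.1 and 19.04 CPM, with 5 of 5 higher, and 2 genes of each were at an unadjusted p under 0.05. The muscle list was at 99.1 and 188 CPM against 4.58 and 8.99 CPM, with 8 of 8 genes higher at that p, and the endothelium list at 237 and 353 CPM against 137 and 229 CPM, with 3 of 5 higher at that p. The erythroid list was at 57.3 and 82.7 CPM against 83.9 and 479 CPM, with 5 of 5 lower at that p. No gene of these 5 lists passed the threshold, and their part was not tested.

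Change over time was then followed within each treatment, from D14 to EOS. Cabo was given for 14 days only, so the EOS tumors were taken after dosing had ended. Later time and the end of dosing cannot be told apart here. In the cabo group all 10 genes were lower in both EOS tumors than in all 3 D14 tumors, as were 20.3% of all genes. Il1b and Il1rn were downregulated past the threshold, where 2.09% of 19144 genes passed, 1.14% as downregulated and 0.945% as upregulated. Il1b fell from 13.5, 17.1 and 17.6 CPM at D14 to 2.17 and 2.26 CPM at EOS, with a change of -2.83 on the log2 scale (SE 0.18, edgeR adjusted p = 0.00181). Il1rn fell from 46.9, 41.3 and 34.5 CPM to 20.5 and 20.2 CPM, with a change of -0.99 on the log2 scale (SE 0.14, edgeR adjusted p = 0.0252). Pycard, Il1r2 and Nlrp3 had log2 differences of -1.21, -1.28 and -1.03 that did not pass with edgeR (adjusted p = 0.0739, 0.0807 and 0.0829) and did with DESeq2. The remaining differences ran from -0.10 (Il1r1) to -0.82 (Il18), and the median over the 10 genes was -0.90 against 0.01 over all genes.

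The call for Il1b held without any of the 5 tumors, and that for Il1rn was lost without mouse 21, 25, 19 or 23. Neither passed with all intratibial groups in 1 fit. Beside these changes the mature neutrophil list was at 3.21 and 3.46 CPM at EOS against 13.4 to 17.9 CPM at D14, with all 7 genes lower and none past the threshold. The macrophage list was at 562 and 565 CPM against 717 to 915 CPM, with 7 of 8 genes lower and 1 past the threshold, while 4 of 5 endothelium genes and 3 of 5 erythroid genes were upregulated. The T cell list was at 3.98 and 4.29 CPM against 11.6 to 18.2 CPM and the fibroblast list at 3583 and 4118 CPM against 5249 to 5917 CPM, each with 5 of 5 genes lower at an unadjusted p under 0.05 and 1 of them downregulated. The muscle list was at 99.6 and 777 CPM against 884 to 1534 CPM, with 8 of 8 genes lower. Of these, 2 were at an unadjusted p under 0.05 and none passed the threshold. The part of these lists in the change of Il1b was not tested. Of the 50 pathway genes 3 were downregulated, which were Mefv (log2 fold change -1.45), Irak3 (-0.77) and Tnfaip3, a feedback inhibitor of NF-kB (-0.89, edgeR adjusted p = 0.00843), and none was upregulated.

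In the other groups no gene of the 10 passed between D14 and EOS. The share of all genes that did was 0.104% in the controls and 0% with IL-27 and with IL-27+cabo by edgeR, DESeq2 called none of the 10 either, and at an unadjusted p under 0.05 stood 2, 4 and 0 of the 10 genes, against 13.1%, 5.05% and 3.83% of all genes. In the controls Aim2, Casp1 and Pycard were lower in both EOS tumors, with log2 differences of -0.84 (SE 0.30), -1.02 (SE 0.38) and -0.78 (SE 0.36). The Il1b difference there was 0.84 and became -3.00 without mouse 9 and 1.79 without mouse 13. The share of all genes lower without overlap in the controls was 17.6%. The macrophage list was at 275 and 402 CPM at EOS against 469 to 1026 CPM at D14, with 7 of 8 genes lower and none past the threshold. The T cell list was at 7.597 and 8.55 CPM against 42.6 to 47.7 CPM, and 3 of its 5 genes were downregulated. The osteoclast list was at 607 and 1525 CPM against 266 to 415 CPM, with 5 of 5 genes higher and none past the threshold. The part of these 3 lists was not tested. In the IL-27 tumors Il1b, Il1r2, Il1rn and Nlrp3 were lower in both EOS tumors, with log2 differences of -2.11, -1.96, -0.75 and -0.88, as were 11.6% of all genes. The mature neutrophil list was at 1.32 and 2.30 CPM there against 3.50 to 6.70 CPM at D14, with 7 of 7 genes lower, and the muscle list at 6.21 and 11.5 CPM against 19.6 to 1693 CPM, with 8 of 8 lower at an unadjusted p under 0.05. The osteoclast list was at 663 and 759 CPM against 199 to 308 CPM, with 5 of 5 higher at that p. With IL-27+cabo Il1b, Il1r2 and Il1rn were lower in both, with -1.03, -1.03 and -0.72, as were 10.8% of all genes. The mature neutrophil list was at 5.37 and 9.11 CPM there against 10.5 to 12.4 CPM, with 7 of 7 genes lower, and the muscle list at 99.1 and 188 CPM against 1092 to 3787 CPM. The osteoclast list was at 573 and 1025 CPM against 183 to 270.03 CPM and the endothelium list at 237 and 353 CPM against 68.2 to 119 CPM, each with 5 of 5 genes higher at an unadjusted p under 0.05. The T cell list was at 3.07 and 3.79 CPM against 9.59 to 12.8 CPM, with 3 of 5 lower at that p. None of these list genes passed the threshold, and the part of the lists was not tested. Whether the effect of a treatment differed between EOS and D14 was tested in 1 fit of all intratibial tumors, and no gene of the 10 passed for IL-27, cabo or IL-27+cabo, where 0%, 0.0788% and 0.0788% of 21563 genes did by edgeR. At an unadjusted p under 0.05 stood 1 of the 10 in each test (Il1b, Il1b and Aim2), against 1.93%, 4.11% and 9.14% of all genes, and DESeq2 called none of the 10. The Il1b term for cabo was -3.69 (SE 1.33), and 0.16 without the EOS control mouse 9.

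To describe how the genes vary with each other, log2 CPM was correlated over the 20 intratibial tumors, which share groups, so that these values are descriptive. Over all 20 tumors Il1b and Il1r2 were the closest of the 45 pairs, with a Pearson's r of 0.896 (Spearman's rho 0.860, and r = 0.816 without the 2 tumors farthest from the median of Il1b). It was 0.875 after the group means were taken away. Their printed promoters hold none of the 5 motifs in common, while those of Il1b and Il1a share the TATA box. For Il18 and Pycard r was 0.871, for Il18 and Casp1 0.814 and for Pycard and Casp1 0.798. The place of Aim2 moved with the tumors included. Over all 20 tumors r was 0.673 for Aim2 and Casp1, 0.359 for Aim2 and Il18 and 0.235 for Aim2 and Pycard. Without D14 IL-27+cabo mouse 20 and EOS IL-27 mouse 10 these were 0.893, 0.724 and 0.687. Those tumors were the farthest from the median of Aim2, or of Il18 for the pair with Il18. The value for Aim2 and Casp1 is then above the 0.816 of Il1b and Il1r2, which leaves out EOS IL-27 mouse 10 and EOS control mouse 13. The tumors left out were chosen by only 1 gene of each pair and differ, so these 2 values do not rank the pairs. Il1a was nearest to Il1rn, at 0.692, and at 0.874 within groups, while its neighbor on the chromosome, Il1b, was at 0.503. Il1r1 had r between -0.06 and 0.53 to the other 9 genes, and within groups it was at 0.641 to Aim2, 0.561 to Nlrp3 and 0.523 to Il1rn. In all, 14 of the 45 pairs exceeded 0.7, and 6 did within groups.

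**Figure D3:**
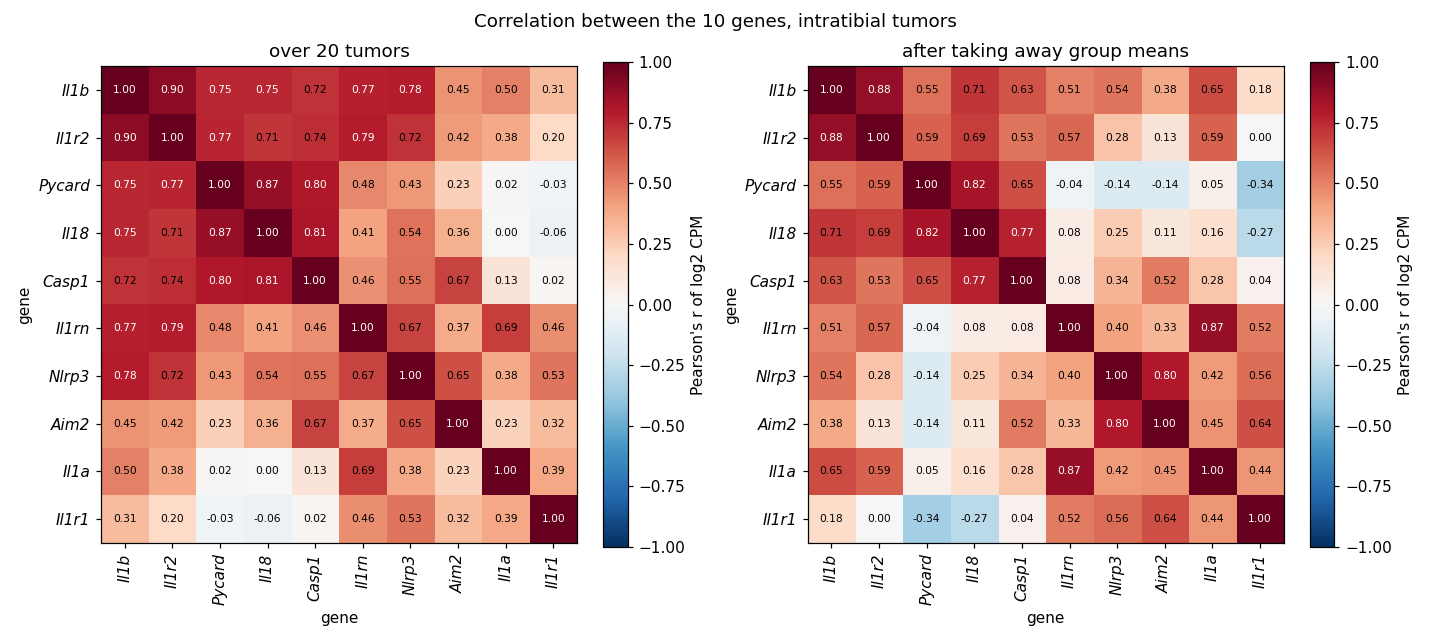
Pearson's r of log2 CPM between each pair of the 10 genes (both axes) over the 20 intratibial tumors, on the left as measured and on the right after the mean of each group was taken away. Il1b and Il1r2 (0.90 and 0.88) and Pycard with Il18 (0.87 and 0.82) are high on both sides, and the row of Il1r1 is paler on the left (up to 0.533) than on the right (up to 0.641).

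Set beside the marker lists, Il1b followed the summed level of the mature neutrophil list more closely than that of any of the other 10 marker lists compared here, with r = 0.958 (rho 0.962, and 0.940 without the 2 tumors farthest from the median of the list) and 0.948 within groups. Il1r2 was at 0.886 to the same list, Nlrp3 at 0.842 and Il1rn at 0.827. Within groups these were 0.853, 0.601 and 0.669, and Nlrp3 was nearer there to the fibroblast list, at 0.716. The mature neutrophil list is low in these tumors, at 1.32 to 19.7 CPM for 7 genes, with up to 4 of them at 0 in a tumor, and Retnlg at 0 in 8 of the 24 tumors. Pycard, Il18 and Casp1 were instead nearest to the macrophage list over all 20 tumors, with r of 0.880, 0.878 and 0.836. Within groups Casp1 was nearer to the dendritic cell list (0.849) than to the macrophage list (0.796). Aim2 was at 0.599 to the dendritic cell list, 0.539 to the fibroblast list and 0.467 to the macrophage list. Within groups these were 0.732, 0.691 and 0.234. Its value to the macrophage list was 0.841 without D14 IL-27+cabo mouse 20 and EOS IL-27 mouse 10. The macrophage list was at 168 to 1504 CPM with none of its 8 genes at 0. Il1b itself was at 0.756 to the macrophage list. Il1r1 was at 0.679 to the fibroblast list and at 0.110 to the macrophage list.

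Among the genes known to respond to IL-1, the summed level followed Il1a (r = 0.762) and Il1rn (0.655) more than Il1b (0.327). Without the tumors of mouse 9 (EOS control) and mouse 20 (D14 IL-27+cabo) together the value for Il1a was 0.489, while that for Il1rn was 0.704.

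**Figure D4:**
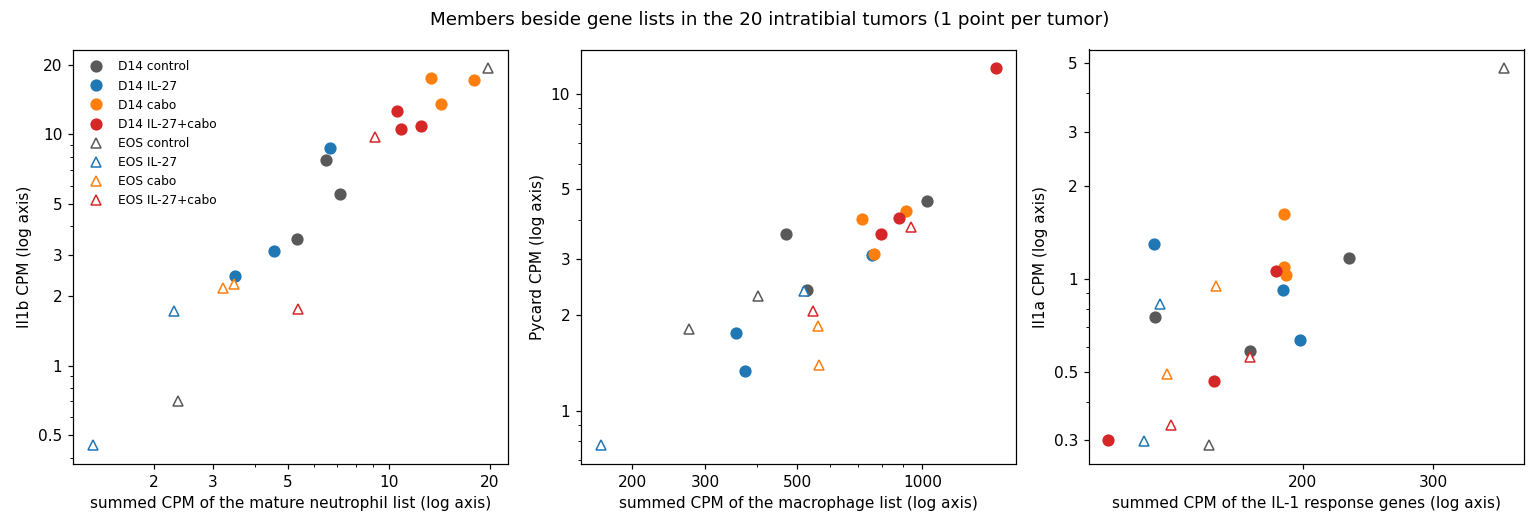
Il1b against the mature neutrophil list, Pycard against the macrophage list and Il1a against the genes that respond to IL-1, as CPM on log axes, with 1 point per intratibial tumor, circles for D14 and open triangles for EOS. Il1b climbs with the neutrophil list over the 20 tumors together (r = 0.958), and the high point for Il1a is the EOS control tumor of mouse 9.

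Of 12570 protein-coding genes compared, those most like each of the 10 over the same 20 tumors were named by the highest r. For Il1b they were Osm (0.924), Ccl2 (0.924) and Napsa (0.903), and for Il1r2 Slc15a3 (0.891), Sirpb1c (0.886) and Slfn2 (0.879). Nlrp3 was nearest to Csf3r (0.909), the receptor of G-CSF, then Il15ra (0.887) and Mmp25 (0.880). Il1a was nearest to Nfkbia (0.866), Litaf (0.837) and Gbe1 (0.793), and Il1rn to Lilr4b (0.864), Sfrp2 (0.836) and F10 (0.815). For Pycard they were Snx20 (0.941), Ccl7 (0.926) and Ccl5 (0.920), for Il18 Ifi27l2a (0.939), Snx20 (0.927) and Lrrc25 (0.922), and for Casp1 Psmb9 (0.931), a subunit of the immunoproteasome, Sp110 (0.926) and Lfng (0.920). Aim2 was nearest to Cd180 (0.891), Wdr41 (0.889) and Trim14 (0.886), and Il1r1 to Stk36 (0.909), Adamtsl4 (0.898) and Scin (0.880).

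The balance of ligand and antagonist was read as the ratio of Il1b to Il1rn in counts per base. In the SC tumors it was 0.972 and 0.563 in the controls and 1.82 and 1.03 with IL-27. At D14 it was 0.546, 0.366 and 0.156 in the controls and 0.524, 0.757 and 0.930 with cabo, and the groups overlapped. It was 0.161, 0.204 and 0.612 with IL-27 and 0.768, 0.481 and 0.484 with IL-27+cabo. At EOS it was 0.0857 and 0.692 in the controls, 0.0788 and 0.146 with IL-27, 0.194 and 0.204 with cabo and 0.114 and 1.02 with IL-27+cabo. Both EOS cabo tumors were below every D14 cabo tumor.

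The ratio of the decoy receptor Il1r2 to Il1r1 was 0.387 and 0.143 in the SC controls and 0.760 and 0.699 with IL-27. At D14 it was 0.210 to 0.269 in the controls, 0.0765, 0.117 and 0.215 with IL-27, 0.197 to 0.265 with cabo and 0.510 (mouse 20), 0.148 and 0.144 with IL-27+cabo. At EOS it was lowest with IL-27, at 0.0239 and 0.0351, against 0.0554 and 0.194 in the controls, 0.114 and 0.0828 with cabo and 0.125 and 0.162 with IL-27+cabo. In every tumor Il1r1 exceeded Il1r2 in counts per base. These ratios are descriptive and were not tested.

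**Figure D5:**
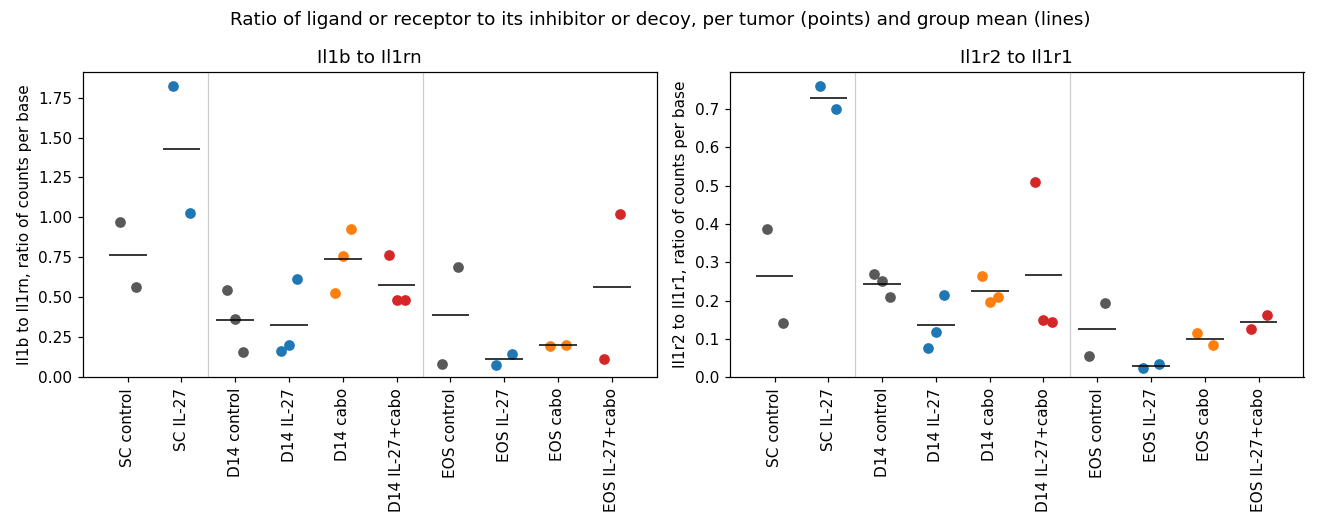
Ratio of Il1b to Il1rn and of Il1r2 to Il1r1 in counts per base of transcript (y axes, from 0), with 1 point per tumor and a line at the mean of each group. Both IL-27 treated SC tumors lie above the controls on both sides, and the EOS IL-27 tumors are lowest for Il1r2 to Il1r1 (0.0239 and 0.0351).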

How the data were processed

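The deposited counts were whole numbers of reads per Ensembl gene, 1 column per tumor. Per the authors' methods, poly(A) stranded libraries were sequenced on a NovaSeq, trimmed with cutadapt and aligned with HISAT2. The submitters' processing notes name FastQC, HISAT2, StringTie and DESeq2 without versions and a build called GRCh38, while the identifiers are those of mouse genes. The program that made the counts is not given in the sources used here. Of the 55401 identifiers, 55141 were found in GENCODE M21. Between 30.4% and 35.5% of the counts from 1 to 20 were multiples of 4.

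The SC and intratibial columns were filtered (filterByExpr) and normalized (TMM) apart, and each comparison was tested across all genes with edgeR 4.0.16 (quasi-likelihood F test, R 4.3.3) and adjusted by the Benjamini-Hochberg method at 0.05. D14 treatments and changes over time were fitted on the groups compared, and the interactions and EOS on all groups involved. Log2 CPM used a prior count of 2. Alternatives were DESeq2 1.42.0, RLE normalization, no filter, offsets for GC content and length, counts divided by 4, 1 fit of all intratibial groups, the muscle list as a covariate, the replicate number as a block (SC), and each tumor left out in turn. Promoters came from RefSeq (GRCm38.p6). Fits were tested on simulated data with 200 genes changed 4-fold. The SC fit recovered 37 of them with 7 false calls. The D14 cabo fit recovered 152 with 14 false calls, and the fit of cabo over time 133 with 12.

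The 10 genes and all lists were chosen with earlier results of these data known. Of the lists, at most 3 genes per comparison and direction were to be named, by smallest p. Others named beside a count of 5 or fewer were chosen after their values were seen. A marker list and 1 feature of the cell line are not reported here.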

Additional observations from a re-analysis of the deposited data

Results flagged for a closer look

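The decoy receptor Il1r2 is listed for a closer look because its values with IL-27 lay on opposite sides of the controls in the 2 tumor sites. Its log2 fold change was 3.30 in the SC tumors, where both treated tumors were above both controls and the change passed the threshold. In the intratibial tumors every treated tumor was below every control, with log2 differences of -0.85 at D14 and -2.13 at EOS, and neither passed (edgeR adjusted p = 1.00 at both times). The EOS difference was -0.63 without control mouse 9. Of all genes, 31.9% were higher without overlap in the SC tumors, and 4.73% at D14 and 16.3% at EOS were lower without overlap. The share with opposite directions at the 2 sites was not counted. The mature neutrophil list, to which Il1r2 had an r of 0.886 over the 20 intratibial tumors, was at 28.7 and 34.8 CPM with IL-27 against 11.8 and 14.9 CPM in the SC controls, and at 1.32 and 2.30 CPM against 2.37 and 19.7 CPM at EOS. At D14 it overlapped, at 3.50 to 6.70 CPM against 5.34 to 7.17 CPM, and its part in the contrast was not tested. The difference between sites was not tested, since the sites were normalized apart and tumor site and library set cannot be told apart.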

How the results depend on the processing

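Of the 15 comparisons, 12 gave no call among the 10 genes under any alternative, and no called gene changed direction. In the SC tumors the 6 calls became 1 with offsets for GC content and length, 2 with these offsets and the replicate block, 4 without the filter (Il1rn and Il1r1 lost), 7 with DESeq2 or counts divided by 4 (Il18 gained), and 2 to 5 when a tumor was left out (Il18 gained without IL-27 tumor 1). With D14 cabo the 2 calls became 3 with DESeq2 (Nlrp3 gained), 1 with the GC and length offsets, 0 without the filter, with all intratibial groups in one fit or with the muscle covariate, and 0 to 1 when a tumor was left out. Between EOS and D14 in the cabo group the 2 calls became 5 with DESeq2, 1 without the filter and 0 with all intratibial groups in one fit. Where a group was left with 1 tumor, that tumor was assumed to vary like the other group.

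Over all genes, the 3880 calls in the SC tumors became 6172 with DESeq2, 1842 with the offsets, 2339 with the offsets and the replicate block, and 2093 without control tumor 1. The 352 calls of D14 cabo became 1500 with DESeq2, 101 without the filter, 40 with all intratibial groups in one fit, 0 with the muscle covariate, and 80 to 588 without 1 tumor. The 400 calls of cabo over time became 1739, 110 and 53 under the first 3 of these settings, and 62 to 439 without 1 tumor. For D14 IL-27+cabo the 12 calls became 484 with DESeq2, 37 with the offsets, 96 in one fit, 0 with the muscle covariate and 0 to 175 without 1 tumor, and for the controls over time the 20 became 872 with DESeq2 and 0 without the filter, in one fit or without any 1 tumor. DESeq2 called 109 and 330 genes over time with IL-27 and IL-27+cabo, where edgeR called 0, and in the 3 tests of treatment and time 3, 89 and 197, where edgeR called 0, 17 and 17. The cause of these shifts was not tested.

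The SC tumors share replicate numbers, but same-numbered tumors did not deviate together (r = 0.0313 over 19360 genes). With the replicate block 6 of the 10 genes and 4248 genes in all were called.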
